A study of Mus musculus with 16 samples.

Results

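The 8 Krüppel-like factor genes examined in mouse lung endothelial cells (MLECs) were *Klf2*, *Klf3*, *Klf4*, *Klf6*, *Klf7*, *Klf9*, *Klf10* and *Klf11*. They were taken from the deposited table by gene symbol, each symbol matched 1 row, and they are 8 of the 55414 genes listed there. All 8 had enough reads to be tested. BMP9 ligand raised *Klf10*, *Klf3* and *Klf9* and lowered *Klf11* and *Klf6* in both Ctrl and KO cells, *Klf7* passed the test for a decrease in Ctrl cells, and the flow-responsive pair *Klf2* and *Klf4* did not pass the test in either.

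MLECs from 4 independent isolations were sequenced, each isolation giving 1 library in each of 4 groups, 16 libraries in all. The cells came from *Rosa26*-CreERT2;*Eng* fl/fl mice on a C57BL/6 background that also carry the Immorto transgene, and they were isolated with CD31- and then ICAM2-coated beads. Ctrl cells (labelled WT) received vehicle and KO cells (labelled ENG KO) received 4-OH-tamoxifen, which activates the Cre that the *Rosa26* locus drives in all cell types. Both were expanded in medium with interferon-γ and the TGF-β receptor inhibitor SB431542, moved to medium without these agents and without 4-OH-tamoxifen, starved of serum overnight and treated for 90 minutes. The groups were Ctrl with PBS, Ctrl with sENG(M):BMP9, KO with PBS and KO with pro:BMP9, both ligands at 0.2 ng/ml of the BMP9 growth factor domain. The complex sENG(M):BMP9 is BMP9 bound to monomeric soluble endoglin, and pro:BMP9 is BMP9 bound to its prodomain. With sENG(M):BMP9 the soluble endoglin was in large excess, and no group received soluble endoglin alone. Loss of *Eng* cannot be told apart from exposure to 4-OH-tamoxifen in these libraries, nor the genotype from the form of ligand given. The age of the mice is not given in the sources used here.

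Libraries held 14869115 to 17242117 counts. *Eng*, the targeted gene, was at 432, 594, 375 and 439 CPM (read counts scaled to library size with TMM normalisation) in Ctrl PBS cells of isolations 1 to 4 and at 40.1, 50.5, 54.3 and 60.0 CPM in KO PBS cells. With ligand it was at 652, 776, 525 and 612 CPM in Ctrl cells and at 115, 129.8, 122 and 115 CPM in KO cells. Every KO library had less *Eng* than every Ctrl library, but the residual *Eng* of KO cells was higher with pro:BMP9 than with PBS (log2 fold change 1.23, adjusted p = 2.80e-07 in edgeR), so the KO cells of the ligand comparisons held more *Eng* reads than those given PBS. The 11 endothelial markers checked, among them *Pecam1*, *Cdh5* and *Erg*, had reads in every library and summed to between 3455 and 7620 CPM. The sum over 10 mural and fibroblast markers lay between 72.4 and 681 CPM, that over 6 leukocyte markers between 27.9 and 40.3 CPM, and that over 6 epithelial markers between 0.315 and 4.09 CPM. Of the mural and fibroblast markers, 9 also had reads in every library of each group. Only 1 of the 6 leukocyte and 1 of the 6 epithelial markers had enough reads to be tested. As these are bulk cultures, fewer cells of a type and less RNA per cell cannot be told apart.

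Krüppel-like factors are transcription factors with zinc fingers at the C-terminus that bind CACCC and GC-rich elements in promoters and enhancers. The N-terminal parts differ and set which partners are recruited. In endothelium *Klf2* and *Klf4* are known as the genes that laminar shear stress induces through the MEK5, ERK5 and MEF2 cascade, and their products keep endothelium quiescent, anti-thrombotic and anti-inflammatory. *Klf6* and *Klf7* encode related activators; *Klf6* is induced by vascular injury and is known to act on the promoters of TGF-β pathway genes, that of endoglin included. *Klf3* encodes a repressor that recruits CtBP. *Klf9*, *Klf10* and *Klf11* encode repressors that bind SIN3A, and *Klf10* and *Klf11* are also known as TIEG1 and TIEG2, TGF-β-inducible early genes.

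The genes lie on 8 different chromosomes, given here on GRCm39 as in the deposited table. *Klf2* (ENSMUSG00000055148) lies at chr8:73072877-73075500 on the plus strand, *Klf3* (ENSMUSG00000029178) at chr5:64960731-64990244 on the plus strand, and *Klf4* (ENSMUSG00000003032) at chr4:55527143-55532466 on the minus strand. *Klf6* (ENSMUSG00000000078) lies at chr13:5911481-5920393 on the plus strand, *Klf7* (ENSMUSG00000025959) at chr1:64068606-64161441 on the minus strand, and *Klf9* (ENSMUSG00000033863) at chr19:23118590-23145498 on the plus strand. *Klf10* (ENSMUSG00000037465) lies at chr15:38291707-38300950 on the minus strand and *Klf11* (ENSMUSG00000020653) at chr12:24701273-24712788 on the plus strand. The canonical transcripts have between 2 exons (*Klf9*) and 6 exons (*Klf3*). *Klf2* overlaps *Eps15l1*, which has 1278 to 1766 counts a library on the opposite strand, and the sources used here do not state whether reads were counted by strand. *Klf3* overlaps the non-coding genes *Gm20033* on the opposite strand (46 to 85 counts) and *C230096K16Rik* on its own strand (10 to 38 counts), far below its own 2883 to 4221 counts. The genes that overlap *Klf7*, *Klf9* and *Klf10* had at most 16 counts, and none overlaps *Klf4*, *Klf6* or *Klf11*.

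Sequence around the gene starts was read from the RefSeq promoter table (build GRCm38.p6), which holds 7 of the 8 genes, *Klf10* being the one without an entry. The 250 bases before each RefSeq start, part of which lie inside the gene as other annotations draw it, were searched on both strands for GGCGCC, a GC-rich SMAD1/5 element that is its own reverse complement, for the SMAD element CAGAC or GTCTG, for the Krüppel-like factor site CACCC or GGGTG, and for TATAAA or TTTATA. Printed below are the stretches that lie outside the gene's GENCODE exons and before the 5′ end in the deposited table, placed on GRCm39 by exact match, for a gene that fell with ligand and holds GGCGCC (*Klf11*), a gene that fell and holds no match (*Klf6*), a gene that rose (*Klf3*) and a gene that did not pass the test (*Klf4*). The stretch of *Klf3* is intronic for GENCODE transcripts that start further upstream. Capitals mark the motif matches and each sequence runs 5′ to 3′ on the strand of its gene.
Klf11, chr12:24701120-24701272, plus strand: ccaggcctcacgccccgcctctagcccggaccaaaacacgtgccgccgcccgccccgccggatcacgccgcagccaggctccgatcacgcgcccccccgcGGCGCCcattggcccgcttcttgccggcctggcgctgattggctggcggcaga
Klf6, chr13:5911238-5911480, plus strand: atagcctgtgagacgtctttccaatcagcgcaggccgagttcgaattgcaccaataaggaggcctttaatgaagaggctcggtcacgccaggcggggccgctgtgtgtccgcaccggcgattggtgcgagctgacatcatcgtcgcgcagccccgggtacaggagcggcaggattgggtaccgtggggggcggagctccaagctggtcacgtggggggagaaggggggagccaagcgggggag
Klf3, chr5:64960614-64960706, plus strand: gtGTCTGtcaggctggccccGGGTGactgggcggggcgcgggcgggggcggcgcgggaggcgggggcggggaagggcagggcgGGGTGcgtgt
Klf4, chr4:55532529-55532725, minus strand: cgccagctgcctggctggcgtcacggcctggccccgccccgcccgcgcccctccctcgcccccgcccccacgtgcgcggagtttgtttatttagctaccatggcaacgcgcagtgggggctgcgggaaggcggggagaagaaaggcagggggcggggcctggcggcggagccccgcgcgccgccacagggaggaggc

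Among the 7 windows, GGCGCC was found in that of *Klf11*, at 150 and 26 bases before the RefSeq start, of which the first is within the printed stretch and the second lies in an exon by GENCODE; 9.54% of the 27025 windows of the table hold it. The SMAD element CAGAC or GTCTG occurred once, in *Klf3*, and is held by 42.1% of all windows. CACCC or GGGTG was present in 4 of the 7 windows, with 5 matches in *Klf3*, 3 in *Klf7* and 1 each in *Klf2* and *Klf9*, against 51.3% of all windows. TATAAA or TTTATA occurred in 0 of the 7 and in 13% of all windows. None of these matches overlapped another. By GENCODE, 8 of the 10 CACCC or GGGTG matches lay in exons of their own gene, those of *Klf2*, *Klf7* and *Klf9* among them, and the other 2, both of *Klf3*, lay in its intron, as did its SMAD element. The windows of the 7 genes had a GC content of 59.2% to 78.4%, where the median window had 52.0%.

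All comparisons used the quasi-likelihood test of edgeR with the isolation as a block, and a gene was taken to change where its p, adjusted after Benjamini and Hochberg over 15693 genes, was under 0.05. Of the 8 genes, 6 passed in Ctrl cells, 3 up and 3 down after sENG(M):BMP9, where 9.69% of all tested genes changed (5.86% up and 3.83% down). In KO cells 5 changed with pro:BMP9, 3 up and 2 down, against 5.59% of all tested genes (3.68% up and 1.92% down). The median absolute log2 fold change of the 8 genes reached 0.29 for Ctrl and 0.32 for KO cells, against 0.09 and 0.08 over all tested genes. As the changes went both ways, the signed medians were 0.03 and 0.15. The 8 genes were chosen with earlier results of these data known, so their contrast with all genes is a description. The group ranges of CPM did not overlap for 4 of the 8 genes (*Klf3*, *Klf9* and *Klf10* above and *Klf11* below PBS) in Ctrl cells and for the same 4 genes in KO cells, where 4.01% and 2.67% of all tested genes had ranges that did not overlap.

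**Figure D1:**
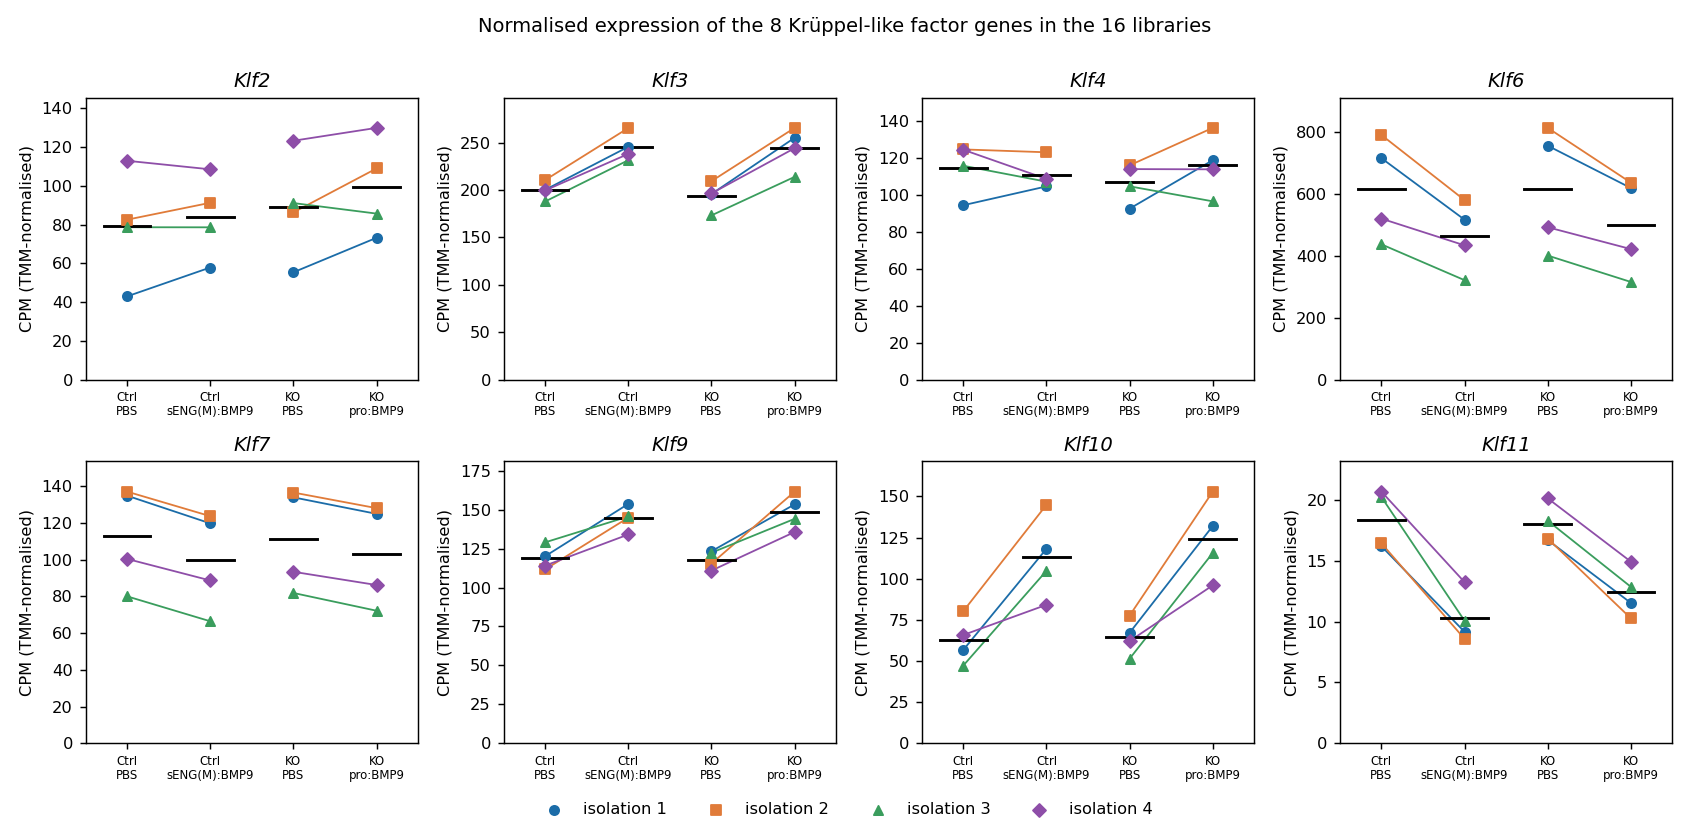
Normalised expression of the 8 Krüppel-like factor genes in each of the 16 libraries, in CPM on a linear axis from 0, by group. Symbols stand for isolations 1 to 4, lines join PBS and ligand libraries of an isolation, and black bars are group means (n = 4); *Klf10* rises and *Klf11* falls along every line, whereas the lines of *Klf2* and *Klf4* run both ways.

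*Klf10*, the TGF-β-inducible early gene TIEG1, had the largest increase. In Ctrl cells of isolations 1 to 4 it was at 56.7, 80.3, 47.2 and 65.8 CPM with PBS and at 118, 145, 105 and 84.1 CPM with sENG(M):BMP9. In KO cells it went from 67.1, 77.6, 51.4 and 62.1 CPM to 132, 153, 116 and 96.0 CPM with pro:BMP9. The lowest ligand-treated library stood above the highest PBS library in both genotypes. The rise was 1.80-fold in Ctrl cells (log2 fold change 0.85 with a standard error of 0.0952, adjusted p = 4.32e-06). It was 1.92-fold in KO cells (0.94 with a standard error of 0.0949, adjusted p = 1.95e-06). Isolation 4 had the smallest rise in both, 0.35 and 0.63 on the log2 scale, where the other isolations lay between 0.85 and 1.17.

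*Klf11*, its closest relative among the 8 genes and a repressor of the same kind, changed in the opposite direction. It was the least expressed of the 8, at 16.2, 16.4, 20.2 and 20.7 CPM in Ctrl PBS cells and 9.15, 8.57, 10.1 and 13.2 CPM after sENG(M):BMP9. KO cells had 16.7, 16.8, 18.3 and 20.1 CPM with PBS and 11.5, 10.3, 12.8 and 14.9 CPM with pro:BMP9. All 4 isolations fell in both genotypes and the group ranges did not overlap. On the log2 scale the change was -0.85 with a standard error of 0.0783 in Ctrl cells (adjusted p = 3.93e-07), a level of 0.557 times that with PBS. In KO cells it was -0.54 with a standard error of 0.0774 (adjusted p = 1.20e-04), or 0.687 times. These values rest on 128 to 342 counts a library.

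*Klf9*, the third SIN3A-binding repressor and otherwise known as a glucocorticoid-responsive gene, rose by less. Ctrl cells had 120.1, 112, 129 and 114 CPM with PBS and 154, 145, 146 and 134 CPM with ligand. KO cells had 123, 115, 122 and 111 CPM with PBS and 153, 162, 144 and 136 CPM with ligand. Every ligand-treated library lay above every PBS library of its genotype. The log2 fold change was 0.28 with a standard error of 0.0467 in Ctrl cells (adjusted p = 3.21e-04) and 0.33 with a standard error of 0.0468 in KO cells (adjusted p = 9.80e-05).

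*Klf3*, which encodes the CtBP-binding repressor, had the most even response. Its level went from 200.3, 211, 188 and 199.7 CPM to 246, 266, 232 and 238 CPM in Ctrl cells, and from 196, 209, 173 and 197 CPM to 255, 266, 214 and 244 CPM in KO cells. The groups did not overlap, and the log2 changes of single isolations lay between 0.25 and 0.33 in Ctrl cells and between 0.30 and 0.38 in KO cells. The fitted log2 fold changes were 0.30 with a standard error of 0.0350 in Ctrl cells (adjusted p = 7.96e-06) and 0.34 with one of 0.0351 in KO cells (adjusted p = 3.07e-06). A 1.23-fold and a 1.26-fold change thus ranked 234 and 97 by p among the 15693 genes.

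*Klf6*, the injury-induced activator, was the most abundant of the 8 genes and fell. Ctrl cells had 717, 792, 438 and 521 CPM with PBS and 517, 581, 322 and 434 CPM with ligand, and KO cells had 757, 815, 401 and 493 CPM with PBS and 620.1, 637, 316 and 422 CPM with ligand. The groups overlapped, because isolations 1 and 2 had more *Klf6* with ligand than isolation 3 had with PBS, but within each isolation the ligand-treated library was lower. The fitted change was -0.40 on the log2 scale in Ctrl cells, with a standard error of 0.0495 (adjusted p = 1.17e-05), and -0.30 in KO cells, with one of 0.0494 (adjusted p = 5.05e-04). *Klf7*, the other activator of this subgroup, went from 135, 137, 80.0 and 100.4 CPM to 119.8, 124, 66.5 and 88.7 CPM in Ctrl cells, which is -0.19 on the log2 scale with a standard error of 0.0390 (adjusted p = 0.00256). In KO cells it was at 134, 137, 81.9 and 93.4 CPM with PBS and at 125, 128, 72.2 and 86.2 CPM with ligand. Each of the 4 KO isolations was lower with ligand, yet the difference of -0.12 on the log2 scale, with a standard error of 0.0391, did not pass the test (adjusted p = 0.0914).

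*Klf2* and *Klf4*, the shear stress-induced genes, did not pass the test with ligand. *Klf2* was at 43.0, 82.6, 78.7 and 113 CPM in Ctrl PBS cells and at 57.9, 91.3, 78.6 and 109 CPM with sENG(M):BMP9, a log2 fold change of 0.11 (95% confidence interval -0.05 to 0.27, adjusted p = 0.485). In KO cells it was at 55.4, 86.3, 91.1 and 123 CPM with PBS and at 73.2, 109, 85.7 and 129.97 CPM with pro:BMP9, a log2 fold change of 0.18 (interval 0.02 to 0.34, adjusted p = 0.266). The isolations went different ways: isolation 1 had 0.43 in Ctrl cells and 0.40 in KO cells, isolation 2 had 0.14 and 0.34, and isolations 3 and 4 lay between -0.09 and 0.08 in both. *Klf4* was at 94.4, 125, 116 and 124 CPM in Ctrl PBS cells and at 105, 123, 107 and 109 CPM with ligand, with a log2 fold change of -0.05 (interval -0.19 to 0.09, adjusted p = 0.802). KO cells had 92.6, 116, 105 and 114 CPM with PBS and 119, 136, 96.5 and 114 CPM with pro:BMP9, a log2 fold change of 0.12 (interval -0.02 to 0.27, adjusted p = 0.472). For *Klf4* too isolation 1 had the highest log2 difference in both genotypes, 0.15 and 0.36. The intervals of both genes end at 0.34 or lower on the log2 scale, below the fitted rise of *Klf10*.

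**Figure D2:**
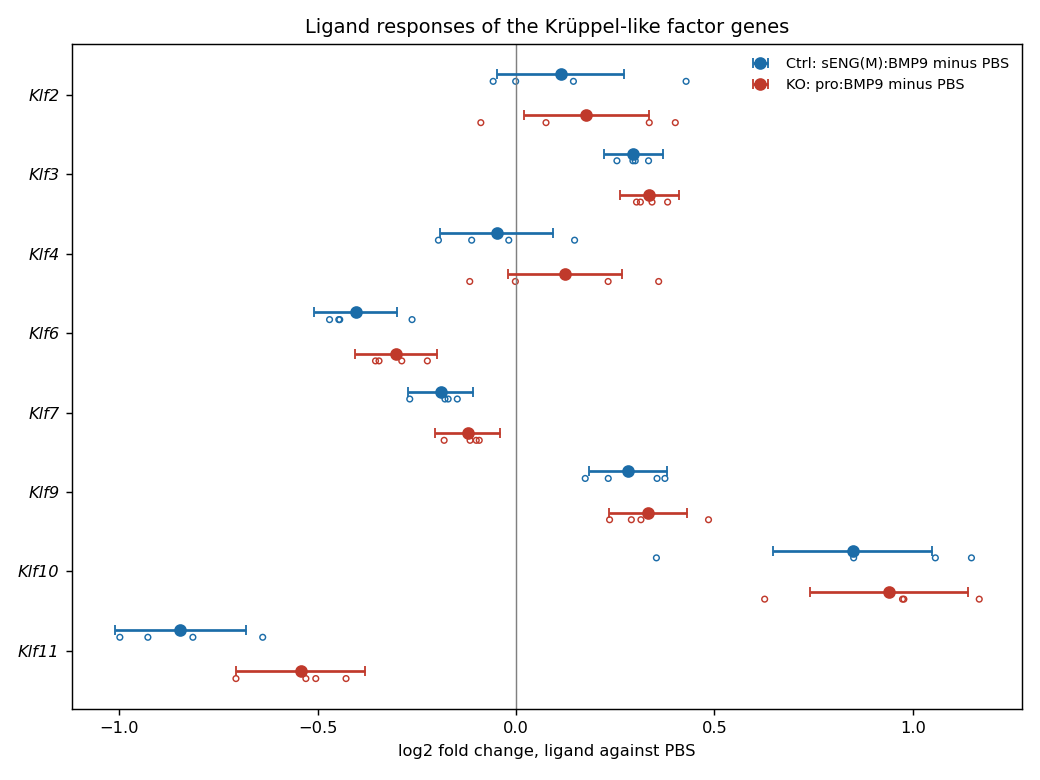
Ligand responses of the 8 genes as log2 fold changes against PBS, for sENG(M):BMP9 in Ctrl cells (blue) and pro:BMP9 in KO cells (red). Filled points are fitted values with 95% confidence intervals and open circles are the 4 isolations; *Klf10* stands furthest to the right at 0.85 and 0.94 and *Klf11* furthest to the left at -0.85 and -0.54.

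The next question was whether loss of *Eng* changed these genes, either at baseline or after ligand. With PBS, 0 of the 8 genes differed between KO and Ctrl cells at an adjusted p under 0.05 in edgeR (1 at an unadjusted p under 0.05), and DESeq2 also gave 0; 0.0191% of all tested genes differed. With ligand the count was again 0 in edgeR and in DESeq2 (2 at an unadjusted p under 0.05), against 0.255% of all tested genes (0.0892% higher and 0.166% lower in KO cells). In PBS the log2 differences between KO and Ctrl cells lay between -0.10 (*Klf4*) and 0.18 (*Klf2*). None of the 8 genes had group ranges that did not overlap, where 1.08% of all tested genes in PBS and 0.79% with ligand did. Mural and fibroblast markers were lower in KO cells for *Dcn* (-0.61 with PBS, adjusted p = 0.0160, and -0.61 with ligand, adjusted p = 0.00835) and *Pdgfrb* (-0.29 with ligand, adjusted p = 0.0289), 1 and 2 of the 10 listed. Their sum ran from 80.9 to 665 CPM in Ctrl PBS libraries and from 74.8 to 591 CPM in KO PBS libraries, and from 86.7 to 681 and from 72.4 to 588 CPM with ligand, and their part in the values below was not tested.

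*Klf2* and *Klf11* came nearest to the threshold. *Klf2* was higher in the KO library of each isolation with PBS and again with ligand, by 0.06 to 0.37 and by 0.12 to 0.34 on the log2 scale. The fitted differences were 0.18 with PBS (95% confidence interval 0.02 to 0.34, unadjusted p = 0.0272, adjusted p = 0.668) and 0.25 with ligand (interval 0.09 to 0.41, unadjusted p = 0.00427, adjusted p = 0.191). With ligand, *Klf2* did pass under 2 of the 11 alternative analyses: with no filter on low counts (adjusted p = 2.06e-04) and with quantile normalisation, ComBat and DESeq2 (adjusted p = 0.0162). In PBS *Klf11* had a log2 difference of -0.03 (interval -0.19 to 0.13) that did not pass, whereas with ligand its level was higher in KO cells in all 4 isolations (0.27, interval 0.10 to 0.45, unadjusted p = 0.00372, adjusted p = 0.177).

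The KO response to ligand minus the Ctrl response was above 0 for each of the 8 genes, from 0.04 (*Klf3*) to 0.30 (*Klf11*), but 0 of the 8 and 0 of all 15693 genes passed the test (565 of all genes and 1 of the 8 at an unadjusted p under 0.05; DESeq2 also gave 0). The percentage of all tested genes called was 0.0. A value above 0 was a larger fitted rise for *Klf3*, *Klf9* and *Klf10* and a smaller fitted fall for *Klf6*, *Klf7* and *Klf11*. The 8 values come from the same libraries and are not independent. Over all tested genes the median difference was 0.003. For *Klf11* the fall with ligand was smaller in KO cells in 4 of 4 isolations, by 0.21 to 0.49 on the log2 scale (fitted difference 0.30, interval 0.07 to 0.53, unadjusted p = 0.0134, adjusted p = 1.00). The intervals of *Klf3* (-0.06 to 0.14), *Klf7* (-0.05 to 0.18) and *Klf9* (-0.09 to 0.19) were the narrowest, and that of *Klf10* (-0.19 to 0.37) was the widest. The response of *Klf7*, which passed in Ctrl cells and not in KO cells, was thus not shown to differ between them (0.07, unadjusted p = 0.233).

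**Figure D3:**
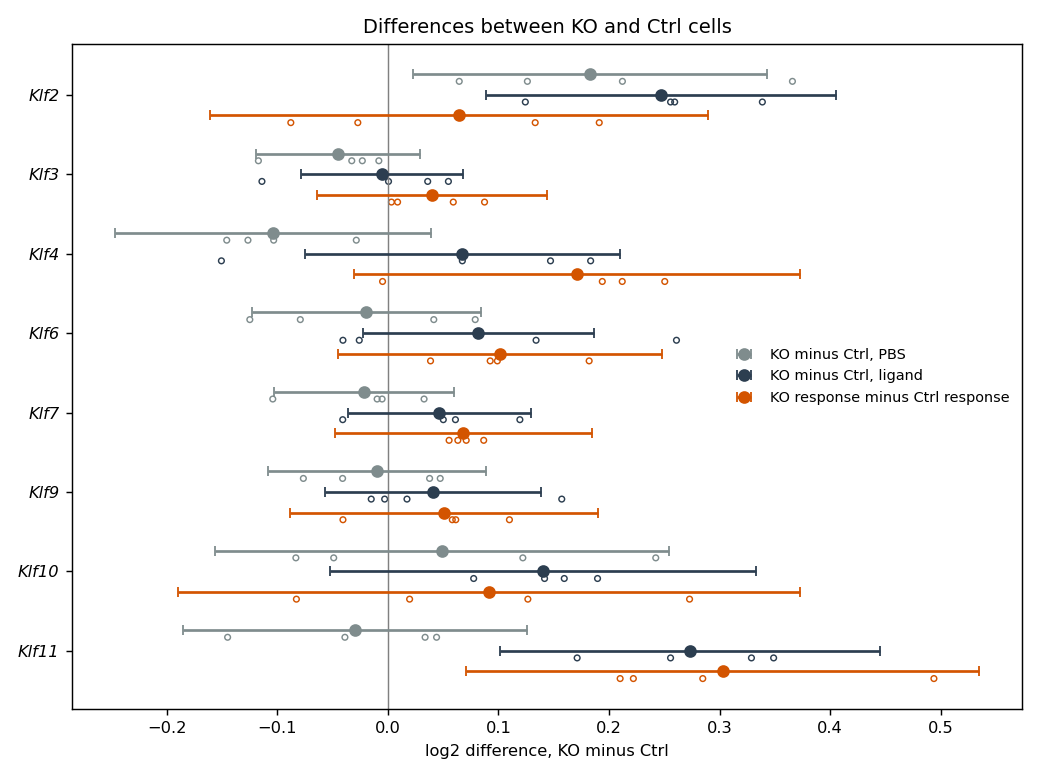
Differences between KO and Ctrl cells for the 8 genes on the log2 scale, with PBS (grey), with ligand (dark blue) and as the KO response minus the Ctrl response (orange). Points are fitted values with 95% confidence intervals and open circles are the 4 isolations; intervals of *Klf2* (PBS and ligand) and *Klf11* (ligand and difference of responses) exclude 0, and no value passed after adjustment over all genes.

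Levels were compared between genes after division by the gene length in the deposited table (CPM per kb). In Ctrl PBS cells *Klf6* led with 140.5 ± 37.6 CPM per kb (mean ± SD, n = 4), followed by *Klf2* with 42.9 ± 15.5 and *Klf4* with 37.7 ± 4.66. *Klf9* (24.7 ± 1.61), *Klf3* (17.8 ± 0.823), *Klf10* (14.96 ± 3.36) and *Klf7* (13.9 ± 3.41) came next, and *Klf11* had 4.23 ± 0.553. The ranges of *Klf2* and *Klf4* overlapped, as did those of *Klf3* and *Klf10* and those of *Klf10* and *Klf7*, and the other neighbours in this order were apart. KO PBS cells had the same order, from 140.4 ± 45.6 for *Klf6* to 4.14 ± 0.368 for *Klf11*. After ligand *Klf10* stood above *Klf3*, with 27.0 ± 6.09 CPM per kb in Ctrl cells and 29.7 ± 5.79 in KO cells, and its range then overlapped those of both *Klf9* and *Klf3*. *Klf11* was lowest in every group, with 2.36 ± 0.479 in Ctrl and 2.85 ± 0.458 CPM per kb in KO cells after ligand.

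**Figure D4:**
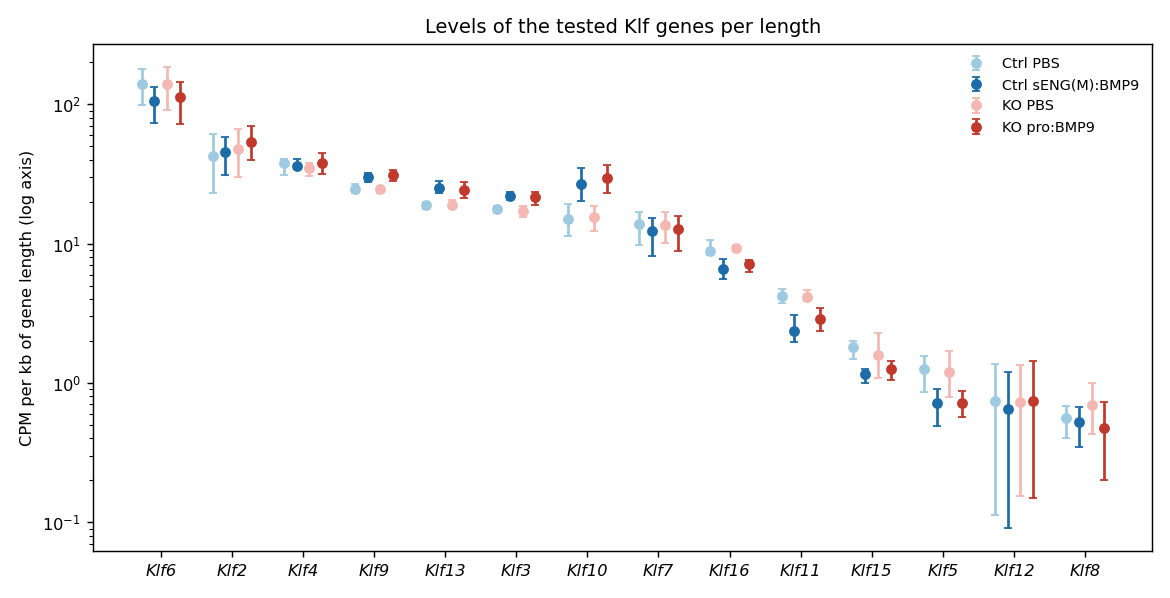
Levels of the 14 tested *Klf* genes in CPM per kb of gene length on a log axis, ordered by the Ctrl PBS mean. Points are means of 4 libraries, bars run from the lowest to the highest library, and colours mark the 4 groups; *Klf6* is highest, at 140.5 CPM per kb in Ctrl PBS cells, and the range of *Klf12* is the widest.

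The 8 genes differed in what set their spread over the 16 libraries. The isolation accounted for 93.8% of the sum of squares of log2 CPM for *Klf7*, 83.6% for *Klf2*, 79.6% for *Klf6* and 55.1% for *Klf4*. Ligand against PBS accounted for 79.1% for *Klf9*, 74.9% for *Klf3*, 74.2% for *Klf10* and 73.7% for *Klf11*. The genotype took its largest share for *Klf2*, 6.74%. *Klf2* averaged 57.4 CPM over the 4 libraries of isolation 1, 92.3 in isolation 2, 83.5 in isolation 3 and 119 in isolation 4. *Klf6* instead averaged 653 and 706 CPM in isolations 1 and 2 and 369 and 468 CPM in isolations 3 and 4, and *Klf7* followed the same split with 128 and 131 against 75.1 and 92.2 CPM. Cell type markers also differed between isolations: the summed endothelial markers averaged 6130, 7581, 3643 and 5423 CPM and the summed mural and fibroblast markers 495, 78.7, 631 and 427 CPM in isolations 1 to 4. Their part in the levels of the 8 genes was not tested, and the comparisons above were made within isolations.

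**Figure D5:**
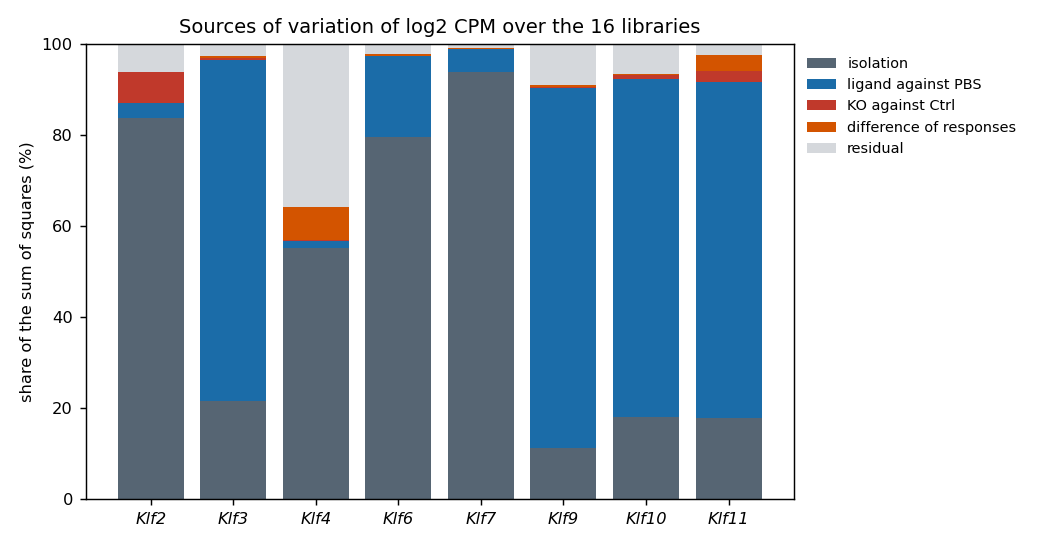
Share of the sum of squares of log2 CPM over the 16 libraries that goes with the isolation, ligand against PBS, KO against Ctrl, the difference of responses and the residual, for each of the 8 genes (bars sum to 100%). Isolation takes 93.8% for *Klf7*, whereas ligand takes between 73.7% and 79.1% for *Klf3*, *Klf9*, *Klf10* and *Klf11*.

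Of 10 further *Klf* genes listed, 9 were in the table and 6 had enough reads to be tested. *Klf13*, which encodes another SIN3A-binding repressor, rose with ligand by 0.40 on the log2 scale in Ctrl cells (adjusted p = 1.15e-06) and by 0.36 in KO cells (adjusted p = 7.63e-06). *Klf5*, *Klf16* and *Klf15* fell in Ctrl cells by 0.81, 0.44 and 0.64 on the log2 scale, and *Klf5* and *Klf16* also in KO cells by 0.71 and 0.39. For *Klf15* the KO value of -0.33 did not pass the test. Levels of *Klf5* and *Klf15* were low, at most 8.76 and 6.37 CPM in any library. *Klf8* and *Klf12*, the CtBP-binding relatives of *Klf3*, were at most at 5.23 and 10.0 CPM in any library and did not pass. *Klf1*, *Klf14* and *Klf17* had at most 4 counts in any library. The SIN3A-binding repressors tested thus split into *Klf9*, *Klf10* and *Klf13*, which rose in both genotypes, and *Klf11* and *Klf16*, which fell in both. Of the related *Sp* genes 6 of 9 were tested, and 1 passed, *Sp3* in KO cells (log2 fold change 0.16, adjusted p = 0.0294). In edgeR, 0 of the 6 *Klf* and 0 of the 6 *Sp* genes differed between KO and Ctrl cells with PBS or with ligand.

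Partners and upstream genes of these factors were counted from lists written from general knowledge, but with earlier results of these data known. Among 7 listed partner genes of the factors, *Ctbp2*, a corepressor gene, rose (log2 fold change 0.20 in Ctrl cells and 0.19 in KO cells). *Wwp1*, a ubiquitin ligase gene, fell (-0.16 and -0.12). *Sin3a*, *Sin3b*, *Ctbp1*, *Hdac1* and *Hdac2* did not pass. Of 12 genes that act upstream of *Klf2* and *Klf4*, 3 rose and 2 fell in Ctrl cells and 2 rose and 1 fell in KO cells. *Mef2a* rose (0.51 in Ctrl and 0.41 in KO cells), *Mapk7*, which encodes ERK5, fell (-0.23 and -0.24), and *Mef2c* fell in Ctrl cells (-0.31). *Heg1*, a receptor gene of the CCM pathway, rose in Ctrl cells (0.38), and *Piezo1*, a mechanosensitive channel gene, rose in both (0.13 and 0.12). The median log2 fold change of the 12 was 0.04 in Ctrl and 0.01 in KO cells, against -0.01 and 0.00 over all tested genes.

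Genes known to be raised, or lowered, by *Klf2* or *Klf4* in endothelium were counted next. Of 9 tested genes of the first kind, 1 rose and 4 fell in Ctrl cells, and the counts in KO cells were equal, with 4 not passing in either. *Adamts1* (-0.88 in Ctrl and -0.73 in KO cells), *Adamts4* (-0.49 and -0.42) and *Thbd*, the thrombomodulin gene (-0.41 and -0.32), fell, and *Gja4*, the connexin 37 gene, rose by 3.17 and 2.78 on the log2 scale. The fourth gene that fell was *Calcrl* (-0.36 and -0.21), named after its values were seen. *Nos3*, the endothelial nitric oxide synthase gene, had log2 fold changes of 0.01 and -0.07 and did not pass. It too was named after its values were seen. Of 9 genes of the second kind, 6 rose and 2 fell in Ctrl cells and 5 rose and 1 fell in KO cells. *Edn1*, the endothelin gene, rose by 1.95 and 1.88, *F3*, the tissue factor gene, by 1.00 and 0.96 and *Sele*, the E-selectin gene, by 0.59 and 0.57. *Vcam1* fell in both genotypes (-0.30 and -0.28) and *Ccl2* in Ctrl cells (-0.21), both named after their values were seen. List medians were -0.04 and -0.07 for the first kind and 0.59 and 0.57 for the second. Over all tested genes the medians were -0.01 and 0.00, and 9.69% changed in Ctrl and 5.59% in KO cells. A part of *Klf2* or *Klf4* in these changes was not tested.

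For scale, 8 of 9 canonical BMP9 response genes rose in each genotype, with *Smad6* at log2 fold changes of 3.45 and 3.21 and *Atoh8* at 3.64 and 3.62, so the response of *Klf10* was small beside them. In KO cells with ligand *Hey1* was lower than in Ctrl cells with ligand (-0.73, adjusted p = 0.00835), and it was the 1 gene of the 9 that differed. Of 20 immediate early genes, 3 rose and 5 fell in Ctrl cells and 4 rose and 3 fell in KO cells. *Junb* rose by 0.97 and 0.81 and *Egr2* by 0.79 and 0.63, whereas *Zfp36* fell by 0.56 and 0.51 and *Egr1* by 0.59 and 0.44, so this list too had members in both directions. *Dusp1* was higher in KO than in Ctrl cells with ligand (0.23, adjusted p = 0.0137).

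The genes whose pattern over the 16 libraries was most like that of each changed factor were found by the root mean square (RMS) difference of log2 CPM after each gene was centred within its isolation. The nearest to *Klf10* were *Hes1*, a Notch and BMP target gene, *Gata2* and *Junb*, with RMS differences of 0.117, 0.125 and 0.127 where *Klf10* itself varied by 0.470 around its isolation means. *Klf11* was nearest to *Slc10a6*, *Arrdc4* and *Adamts1* (0.0758, 0.0887 and 0.0893). *Klf3* and *Klf9* were among each other's 3 nearest genes, 0.0514 apart, beside *Bcl2l11* and *Bag3* for *Klf3* and *Podxl* and *Notch1* for *Klf9*. *Klf6* was nearest to *Zfp263*, *Dcbld2* and *Rapgef5* (0.0484 to 0.0599) and *Klf7* to *Ilvbl*, *Ammecr1l* and *Dusp3* (0.0336 to 0.0354). For each of these neighbours both ligand responses had the sign of the factor's own. As log2 fold changes, those of *Hes1* were 0.93 in Ctrl and 0.95 in KO cells and those of *Slc10a6* were -0.70 and -0.54, beside 0.85 and 0.94 for *Klf10* and -0.85 and -0.54 for *Klf11*. The neighbours were picked on these same libraries, with PBS and with ligand, so a shared sign and similar size follow from the choice. These are descriptions without a test.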

How the data were processed

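RNA sequencing of MLECs from 4 isolations was used, with Ctrl and KO cells each given PBS or a BMP9 ligand. The authors deposited raw read counts per gene for GRCm39. Their sequencing provider prepared stranded poly(A) libraries and aligned paired-end reads with HISAT2 2.0.5, and the submitters' processing notes name featureCounts 1.5.0-p3; the annotation release and strand setting are not given in the sources used here. Quantile normalisation, ComBat and DESeq2 1.26.0, which the authors applied later, are not part of the deposited counts.

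Groups and isolation numbers were taken from the labels. The filterByExpr function of edgeR 4.0.16 (R 4.3.3) kept genes by group with a minimum count of 10 and a minimum total of 15. After TMM scaling, 1 quasi-likelihood fit with the isolation as a block to all 16 libraries gave 5 comparisons; the scripts were tested on simulated data. The block was kept because same-numbered libraries are of the same isolation. After removal of group means their mean correlation across genes was 0.757 (24 pairs). The mean of -0.251 for different numbers (72 pairs) follows from that removal and is not a separate observation. Single-isolation log2 differences use a prior count of 2. Alternatives used DESeq2 1.42.0 and sva 3.50.0, other scalings, filters and libraries.

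The 8 genes and all lists were chosen with earlier results of these data known. Named genes are the 8, *Eng*, at most 4 called genes a list and comparison (smallest p), and the 3 genes most like each changed factor; 1 gene that the rule names is not reported here. Genes outside this rule are said to be chosen after their values were seen, or are given to complete a count or list. Depth was 14869115 to 17242117 counts a library, and the precision is that of 4 isolations.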

Additional observations from a re-analysis of the deposited data

Results flagged for a closer look

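Of 36 groups of 4 values checked (the library totals and the CPM of the 8 genes in each group), 1 held a value far from the rest: the KO pro:BMP9 library of isolation 2 had 16759576 counts, where the next highest of that group had 15081407. The gap was 0.888 of the range of the group. By chance about 1 in 20 groups would be marked in this way. CPM values are scaled to the library total, and no group of CPM values of the Krüppel-like factor genes was marked.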

How the results depend on the processing

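The 11 alternatives were a fit without the replicate block, DESeq2 with the block, RLE size factors, all 29339 genes with a count, genes with 10 counts or more in each library, only the libraries of the comparison, quantile normalisation with ComBat and DESeq2, and each isolation left out in turn. In 10 or 11 of the 11, each of the 6 factors that changed in Ctrl cells and each of the 5 that changed in KO cells kept its direction and an adjusted p under 0.05; the exception was the fit without the replicate block. That fit called 167 genes in Ctrl cells with ligand, 91 in KO cells with ligand, 1 between genotypes with PBS and 1 with ligand, and of the 8 factors it called 1 in Ctrl cells (*Klf11*) and 2 in KO cells (*Klf9* and *Klf10*). Leaving out the block turned no direction among these factors and made no call among them between genotypes. Between genotypes, all genes called with PBS numbered 7 with DESeq2, 204 without a filter, 62 with quantile normalisation, ComBat and DESeq2, and 1 with only the libraries of the comparison; with ligand they numbered 141, 517 and 351 in the first 3 of these. For the difference of responses, where the fit to the libraries of the comparison is the same as the reported one and 10 alternatives apply, 52 genes were called with no filter and 11 with quantile normalisation, ComBat and DESeq2. *Klf2* between ligand-treated genotypes was the 1 factor called with no filter and the 1 called with quantile normalisation, ComBat and DESeq2, and *Klf2* in KO cells with ligand passed with no filter (adjusted p = 0.0188) and *Klf7* there with quantile normalisation, ComBat and DESeq2 (adjusted p = 0.0113); the cause was not tested. With 1 isolation left out, all genes called numbered 573 (without isolation 2) to 745 in KO cells with ligand, 1 (without isolation 3) to 69 (without isolation 4) between genotypes with PBS and 6 (without isolation 1) to 175 (without isolation 4) with ligand. The sign turned when 1 isolation was left out for small differences that passed nowhere: *Klf4* with ligand in Ctrl cells (-0.113 to 0.00139), *Klf6* (-0.0547 to 0.0159), *Klf7* (-0.0387 to 0.00552), *Klf9* (-0.0274 to 0.0142), *Klf10* (-0.0133 to 0.1003) and *Klf11* (-0.0548 to 0.0120) between genotypes with PBS, and *Klf3* (-0.0281 to 0.0301) and *Klf9* (-0.00461 to 0.0586) with ligand. *Klf11* rests on 128 to 342 counts a library, fewer than any other of the 8 factors.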
